A study of Mus musculus with 5 samples.

Results

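The surface Toll-like receptors and the receptor-like protein Cd180, with their accessory proteins, were followed in melanomas of mice that received an MDM2 inhibitor on top of anti-PD-1. The group holds 9 of the 19505 genes with a named probe set on the array: the receptors Tlr1, Tlr2, Tlr4, Tlr5 and Tlr6, the receptor-like Cd180, its partner Ly86, and the Tlr4 partners Ly96 and Cd14. The genes were selected by their place in this receptor family, and for a gene with several probe sets the one with the highest mean over the 5 arrays would have stood for it, but all 9 had a single probe set. The large rise of Cd180 was already known when the family was put together, so its values are given as a description with no p-value. For the other 8 genes, adjusted p-values come from the fit over all probe sets and place each gene within that fit. A probe set was called when its Benjamini-Hochberg adjusted p in limma, a linear model with variances moderated across probe sets, was under 0.05.

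The tumours grew under the skin of wild-type C57BL/6 mice, 10 weeks old, from injected B16.F10 luc+GFP+ cells, an established mouse melanoma line. Of the 5 mice, 3 were given RG7112, a small molecule that keeps MDM2 from binding and degrading p53, together with anti-PD-1 (replicates 1, 2 and 3). The other 2 mice were given vehicle, corn oil with 5% DMSO, together with anti-PD-1 (replicates 3 and 4). Anti-PD-1, an antibody against an inhibitory receptor of T cells, went into the peritoneum of every mouse on days 1, 4 and 8, RG7112 or vehicle was given by mouth every 2 days for 6 days, starting 2 days after injection, and tumours were removed on day 13. Both groups therefore carry anti-PD-1, and no tumour without it and none with RG7112 alone was analysed here. RNA of the whole tumour, melanoma cells and infiltrating immune cells together, was hybridised to 1 Affymetrix Clariom S array per tumour, and values are log2 signals of RMA, a normalization across arrays. A log2 signal cannot be set against that of another probe set, and no detection call was used here, so dim genes are marked by their percentile among the means of all probe sets.

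Toll-like receptors detect molecules of microbes and of damaged tissue through an outer domain of leucine-rich repeats and signal through an inner TIR domain. At the cell surface Tlr4 senses bacterial lipopolysaccharide with the help of Ly96, which binds the lipid, and of Cd14, which hands it over. Tlr2 pairs with Tlr1 or with Tlr6 to sense lipopeptides, and Tlr5 senses flagellin. Ligand binding recruits the adaptor Myd88 and a complex of kinases that ends in NF-kB activation. Cd180 resembles the outer part of Tlr4 but has no TIR domain, reaches the surface together with Ly86, and is best known on B cells, macrophages and dendritic cells. It has been described as a damper of Tlr4 signalling in myeloid cells and as a stimulus of B cells.

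The promoters of Cd180, whose rise was known beforehand, and of the called genes Ly86 and Tlr1 are shown. That of Tlr2, the partner of Tlr1, which was not called, stands beside them. The RefSeq promoter table of GRCm38.p6 held 6 of the 9 genes, and the 250 bases before the first listed transcription start were searched on both strands for the PU.1 core GAGGAA, the interferon regulatory factor pattern GAAANNGAA, the AP-1 pattern TGANTCA, an NF-kB site and a p53 half-site. Capitals mark the matches.
Cd180, chr13:102693297-102693546, plus strand: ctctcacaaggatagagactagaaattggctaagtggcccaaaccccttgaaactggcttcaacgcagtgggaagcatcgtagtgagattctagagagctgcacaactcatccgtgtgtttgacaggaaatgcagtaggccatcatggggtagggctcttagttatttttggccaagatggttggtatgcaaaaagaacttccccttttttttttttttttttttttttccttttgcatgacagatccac
Ly86, chr13:37345095-37345344, plus strand: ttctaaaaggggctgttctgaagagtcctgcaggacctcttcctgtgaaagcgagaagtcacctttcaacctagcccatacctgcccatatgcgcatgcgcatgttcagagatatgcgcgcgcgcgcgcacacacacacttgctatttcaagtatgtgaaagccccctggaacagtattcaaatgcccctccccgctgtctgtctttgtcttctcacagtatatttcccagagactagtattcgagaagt
Tlr1, chr5:64933559-64933808, minus strand: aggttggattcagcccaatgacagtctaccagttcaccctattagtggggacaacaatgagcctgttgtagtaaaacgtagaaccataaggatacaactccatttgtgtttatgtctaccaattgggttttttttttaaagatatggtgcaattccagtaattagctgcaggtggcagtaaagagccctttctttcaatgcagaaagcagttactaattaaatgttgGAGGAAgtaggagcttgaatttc
Tlr2, chr3:83841609-83841858, minus strand: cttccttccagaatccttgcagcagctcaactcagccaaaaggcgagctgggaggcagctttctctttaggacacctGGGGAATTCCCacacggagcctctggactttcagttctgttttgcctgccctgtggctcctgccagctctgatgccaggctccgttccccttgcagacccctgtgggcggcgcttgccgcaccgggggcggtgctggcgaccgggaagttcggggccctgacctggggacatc

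The PU.1 core stood in 1 of the 6 windows, that of Tlr1, with its first base 23 bases before the start, and in 23.1% of the 27025 promoters in the table. The NF-kB site stood in the window of Tlr2, as overlapping matches that begin 173 and 172 bases before the start, and in 7.01% of promoters. The interferon regulatory factor pattern stood in 1 window, that of Tlr6, and in 7.16% of promoters. AP-1 and p53 half-site matches were in 0 of the 6 windows, against 6.87% and 7.18% of promoters. The windows of Cd180 and Ly86, the members with the largest differences, held none of these 5 patterns. Cd180, Tlr1 and Tlr6 each have 2 listed starts, and the second was not searched. Matches of letters are a description of these windows, not of binding.

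The comparison asked how the addition of RG7112 to anti-PD-1 changed the levels of these receptors. Cd180, Ly86 and Tlr1 were called higher, 3 of 9 genes, and 0 were called lower. This count and those below include Cd180 as a description only, because its rise was known when the family was put together. Over all 22203 probe sets, 315 were called higher, or 1.42%, and 7 lower, or 0.0315%. At an unadjusted p under 0.05 in limma, 4 of the 9 genes were higher and 0 lower, against 4.83% and 4.06% of all probe sets. The median log2 difference (RG7112 minus vehicle) of the 9 genes was 0.51 and that of all probe sets -0.03. Every RG7112 tumour lay above every vehicle tumour in 4 of the 9 genes, Cd180, Ly86, Tlr1 and Tlr2, a pattern that 10.8% of all probe sets showed. The opposite pattern was found in 0 of the 9 genes and in 14.0% of all probe sets. Since these genes were brought together with such results known, the counts describe the family and are not evidence about it.

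**Figure D1:**
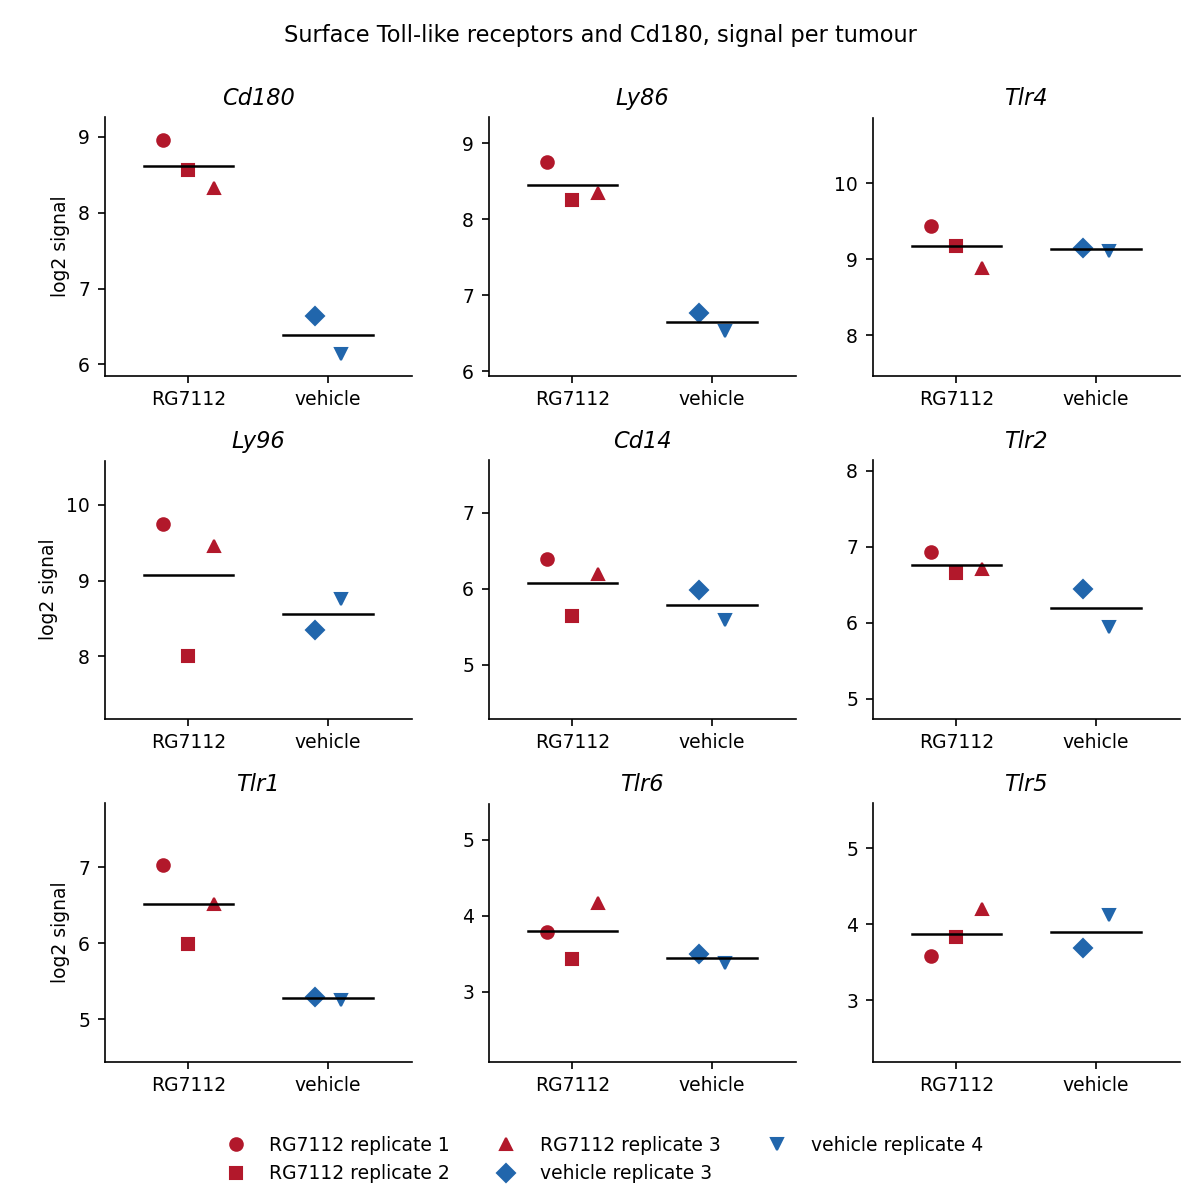
Log2 signal of the 9 genes in each tumour, with RG7112 tumours in red on the left and vehicle tumours in blue on the right of each panel; each symbol is 1 tumour, the bar is the group mean, and every panel spans the same number of log2 units. Cd180, Ly86, Tlr1 and Tlr2 separate the groups, and Tlr4 lies near 9.1 in both.

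Cd180 had log2 signals of 8.96, 8.56 and 8.32 in the RG7112 tumours (replicates 1, 2 and 3), against 6.63 and 6.14 in the vehicle tumours (replicates 3 and 4). All 3 RG7112 tumours were well above both vehicle tumours, and the range within either group was at most 0.64. The group means were 8.62 ± 0.32 with RG7112 (SD, n = 3) and 6.39 ± 0.35 with vehicle (SD, n = 2). The log2 difference was 2.23 ± 0.22 (SE), or 4.68-fold, and took place 11 when all 22203 probe sets were ordered from the largest rise down. Leaving out any 1 tumour gave differences from 1.98 to 2.47.

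Ly86, which Cd180 needs for its place on the cell surface, had signals of 8.75, 8.25 and 8.35 in the RG7112 tumours and 6.77 and 6.53 in the vehicle tumours. The groups did not overlap, and RG7112 replicate 1 was the highest tumour, as for Cd180. The group means were 8.45 ± 0.26 with RG7112 (SD, n = 3) and 6.65 ± 0.17 with vehicle (SD, n = 2). Ly86 rose by 1.80 ± 0.19 on the log2 scale, or 3.48-fold (limma adjusted p = 0.000703). The call held without any 1 tumour, with differences from 1.65 to 1.92 and adjusted p-values from 0.00107 to 0.0381. Cd180 minus Ly86, taken within each tumour, was 0.21, 0.31 and -0.02 with RG7112 and -0.13 and -0.39 with vehicle. This gap was therefore larger by 0.43 ± 0.16 (SE) in RG7112 tumours, a description with no test.

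Tlr4, the lipopolysaccharide receptor, had signals of 9.44, 9.18 and 8.89 in RG7112 tumours and 9.15 and 9.11 in vehicle tumours. The vehicle values lay inside the range of the RG7112 values, and the gene was bright, with its mean at percentile 90.7 of all probe sets. The difference was 0.04 ± 0.18 on the log2 scale (limma adjusted p = 0.982), with a 95% interval from -0.37 to 0.44. Without RG7112 replicate 1 its difference was -0.10. Within each tumour, Cd180 minus Tlr4 was -0.48, -0.62 and -0.56 with RG7112, against -2.52 and -2.97 with vehicle. The change of Cd180 thus exceeded that of Tlr4 by 2.19 ± 0.18 (SE), again with no test because of Cd180.

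Ly96, which binds the lipid part of lipopolysaccharide for Tlr4, had signals of 9.75, 8.01 and 9.45 with RG7112 and 8.35 and 8.76 with vehicle. RG7112 replicates 1 and 3 were above both vehicle tumours and replicate 2 was the lowest of all 5, a range of 1.74 within the RG7112 group. The difference was 0.51 ± 0.40 (limma adjusted p = 0.807). It was 1.04 without RG7112 replicate 2, where Ly96 was called (adjusted p = 0.0469), and from 0.17 to 0.72 in the other 4 fits that left out a tumour. Cd14, the carrier that loads Tlr4 and Ly96, had signals of 6.39, 5.65 and 6.20 with RG7112 and 5.99 and 5.59 with vehicle. The groups overlapped, and the difference was 0.29 ± 0.23 (limma adjusted p = 0.807).

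Within each tumour, Tlr4 minus Ly96 was -0.31, 1.16 and -0.56 with RG7112, against 0.80 and 0.35 with vehicle. The mean gap differed by -0.48 ± 0.71 (SE), and a two-sided exact permutation test gave p = 0.5 (0.6 after Benjamini-Hochberg over the 4 pairs tested). Tlr4 minus Cd14 differed by -0.25 ± 0.34, with an exact permutation p = 0.5 (adjusted 0.6). With 3 against 2 tumours the smallest p this test can give is 0.1.

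Tlr1, which pairs with Tlr2 for triacylated lipopeptides, had signals of 7.03, 6.00 and 6.52 in the RG7112 tumours, against 5.30 and 5.25 in the vehicle tumours. All RG7112 tumours were above the vehicle tumours, but they ranged over 1.03 log2 units, and the vehicle tumours over 0.04. Tlr1 rose by 1.24 ± 0.25 on the log2 scale, or 2.36-fold (limma adjusted p = 0.0357). The call was lost without RG7112 replicate 3 (1.24, adjusted p = 0.138), without vehicle replicate 3 (1.26, adjusted p = 0.336) and without vehicle replicate 4 (1.22, adjusted p = 0.353), so the size was kept and the threshold was not.

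Tlr2 had signals of 6.93, 6.65 and 6.70 in RG7112 tumours, against 6.44 and 5.94 in vehicle tumours. The groups did not overlap, but the nearest tumours were close, and the difference of 0.57 ± 0.19 did not pass (limma adjusted p = 0.302). Its 95% interval ran from 0.15 to 0.98. It was 0.32 without vehicle replicate 4 and 0.82 without vehicle replicate 3. Tlr2 minus Tlr1 within each tumour was -0.10, 0.65 and 0.18 with RG7112, against 1.14 and 0.69 with vehicle. The gap differed by -0.67 ± 0.33 (SE), with an exact permutation p = 0.2 (adjusted 0.6).

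Tlr6, the partner of Tlr2 for diacylated lipopeptides, lies next to Tlr1 on the chromosome with 0 protein-coding genes between them in RefSeq, and the proteins are close relatives. Its signals were 3.79, 3.43 and 4.17 with RG7112 and 3.50 and 3.38 with vehicle. The groups overlapped, and the mean over all tumours was at percentile 14.9, where a level is hard to tell from background. The difference was 0.36 ± 0.21 (limma adjusted p = 0.703). How far the Tlr1 and Tlr6 probe sets also bind RNA of the other gene was not tested. Tlr2 minus Tlr6 differed by 0.21 ± 0.32 between the groups (exact permutation p = 0.6, adjusted 0.6).

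Tlr5, the flagellin receptor, was also dim, at percentile 20.6. Its signals were 3.58, 3.84 and 4.21 with RG7112 and 3.69 and 4.12 with vehicle. The groups overlapped fully, and the difference of -0.03 ± 0.21 changed sign with the normalization and with the tumours used (limma adjusted p = 0.987; 95% interval from -0.50 to 0.44).

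**Figure D2:**
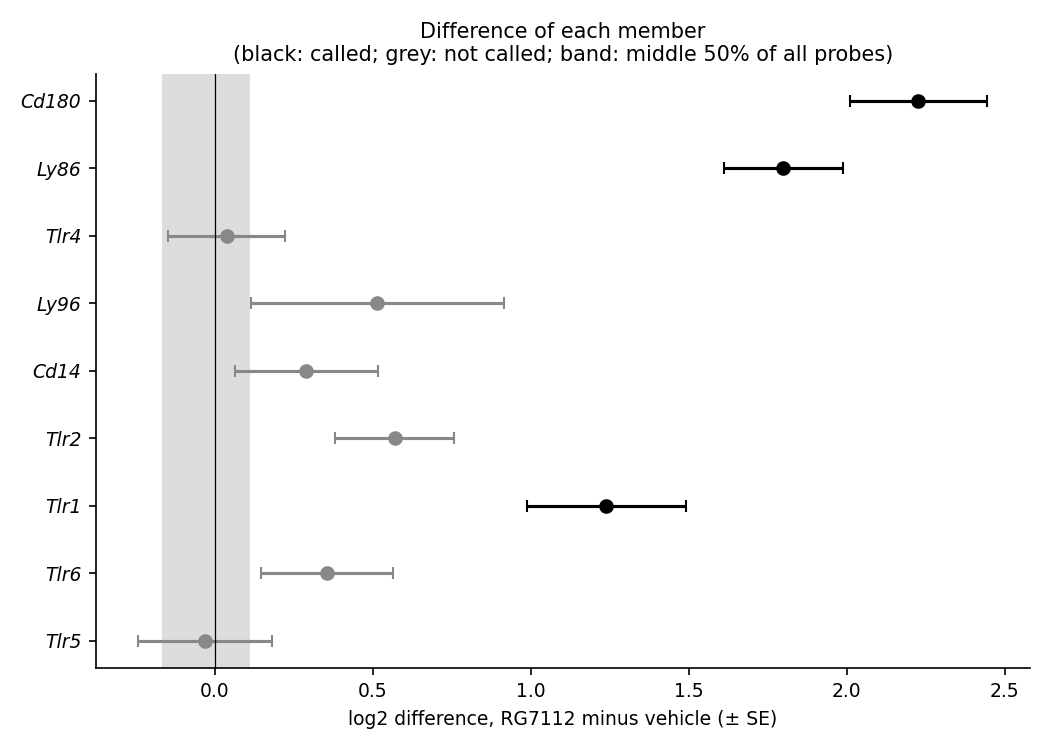
Log2 difference of each gene, RG7112 minus vehicle, from the limma fit, with its SE as the bar; black points were called, grey points were not, and the band holds the middle 50% of all probe sets. Cd180 at 2.23, Ly86 at 1.80 and Tlr1 at 1.24 stand to the right of the other 6 genes. Those lie between -0.03 and 0.57. The black of Cd180 is a description only, because its rise was known beforehand.

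The RG7112 tumours were not alike in these genes. Replicate 1 was the highest of the 5 tumours for Tlr1, Tlr2, Tlr4, Cd180, Ly86, Ly96 and Cd14, and replicate 3 for Tlr5 and Tlr6. Replicate 2 was the lowest RG7112 tumour for Tlr1, Tlr2, Tlr6, Ly86, Ly96 and Cd14. The range within the RG7112 tumours ran from 0.28 for Tlr2 to 1.74 for Ly96.

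**Figure D3:**
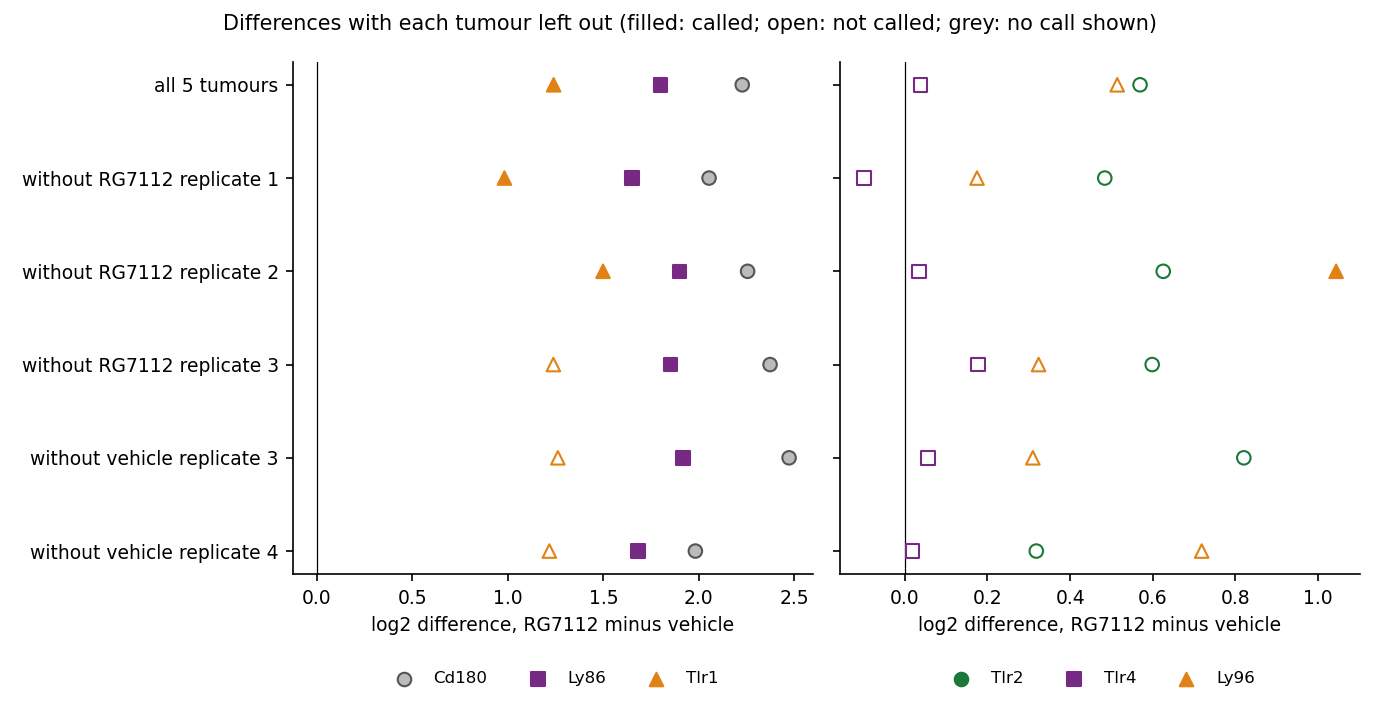
Log2 difference, RG7112 minus vehicle, in the fit of all 5 tumours (top) and with each tumour left out, for Cd180, Ly86 and Tlr1 on the left and Tlr2, Tlr4 and Ly96 on the right; filled symbols were called, open ones were not, and Cd180 is grey with no call shown. Ly86 stays called throughout, Tlr1 is called in 3 of the 6 fits, and Ly96 only without RG7112 replicate 2.

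In RNA of whole tumours, more or fewer cells of a type cannot be told apart from more or less RNA per cell. The levels of cell type markers therefore stand beside the receptors. Of 13 measured macrophage and monocyte markers, 8 were called higher and 0 lower, and 12 were higher and 1, the scavenger receptor Cd163, was lower at an unadjusted p under 0.05. Aif1 rose by 2.57 ± 0.20, Adgre1 by 1.58 ± 0.18, Ly6c2 by 2.03 ± 0.26 and Fcgr1 by 1.34 ± 0.17. The summed level of the list, taken as its mean log2 signal, was 7.12 to 7.49 in RG7112 tumours and 5.96 to 6.20 in vehicle tumours, a difference of 1.22. Without vehicle replicate 4, 1 of the 13 markers was called. Of 5 pan-leukocyte markers 4 were called higher, and Ptprc, the common leukocyte antigen, rose by 1.93 ± 0.21 (limma adjusted p = 0.000776). The 4 became 3 without vehicle replicate 3 and 2 without vehicle replicate 4, where Ptprc was still called. Of 8 measured B cell markers 0 were called, and 0 had an unadjusted p under 0.05. Ms4a1 and Cd79a, surface proteins of B cells, differed by -0.16 ± 0.23 and -0.14 ± 0.22. Cd22 and Blk, which had the smallest unadjusted p of this list, differed by 0.37 ± 0.18 and -0.40 ± 0.22. Cd22 was the only 1 of the 8 with a positive difference. The B cell list stood at 4.05 to 4.61 with RG7112 and 4.49 to 4.51 with vehicle. Of 9 dendritic cell markers 1 was called, the integrin Itgax (0.98 ± 0.20), which macrophages express too and which was called in 1 of the 5 fits without a tumour, and the list stood at 4.70 to 4.97 with RG7112 and 4.69 to 4.73 with vehicle. Of 9 measured neutrophil markers 0 were called and 1, Csf3r, was higher at an unadjusted p under 0.05. The neutrophil list stood at 4.34 to 4.40 with RG7112 and 4.32 to 4.45 with vehicle. Mean signals lay at percentiles 17.7 to 49.9 for the B cell markers, 8.3 to 47.5 for the neutrophil markers and 8.2 to 54.7 for the dendritic cell markers. At the low end of these ranges a level is hard to tell from background. The 8 melanocyte markers, all at or above percentile 97.0 of mean signal, stood at 12.0 in each RG7112 tumour, against 11.9 and 12.0 with vehicle. Of 6 measured T cell markers 1 (Cd8b1) was called and 4 were higher at an unadjusted p under 0.05, and the list stood at 5.39 to 5.53 with RG7112 and 4.78 to 4.90 with vehicle, a difference of 0.63. Of 6 endothelial markers 1 (Kdr) was called and 4 were higher at an unadjusted p under 0.05, and the list stood at 6.58 to 6.74 with RG7112 and 6.04 to 6.16 with vehicle, a difference of 0.55. Cd8b1 was called in 0 and Kdr in 1 of the 5 fits without a tumour. Of 5 measured fibroblast markers 0 were called and 0 had an unadjusted p under 0.05. The part of these cell types in the differences of the receptors was not tested.

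Within each tumour, Cd180 minus the mean of the macrophage and monocyte list was 1.48, 1.44 and 1.02 with RG7112. With vehicle it was 0.43 and 0.18, a difference of 1.01 between the groups. Ly86 differed by 0.58 on this scale, Tlr1 by 0.02, Tlr2 by -0.65 and Tlr4 by -1.18. Set against Ptprc, the differences were 0.29 for Cd180, -0.13 for Ly86, -0.69 for Tlr1, -1.36 for Tlr2 and -1.90 for Tlr4. Cd180 minus Ptprc was 0.21, -0.19 and 0.20 with RG7112 and 0.00904 and -0.45 with vehicle, so the groups overlapped on this scale. The sign of the difference for Ly86 and Tlr1 depends on which leukocyte measure is taken, and these ratios show unequal changes only.

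**Figure D4:**
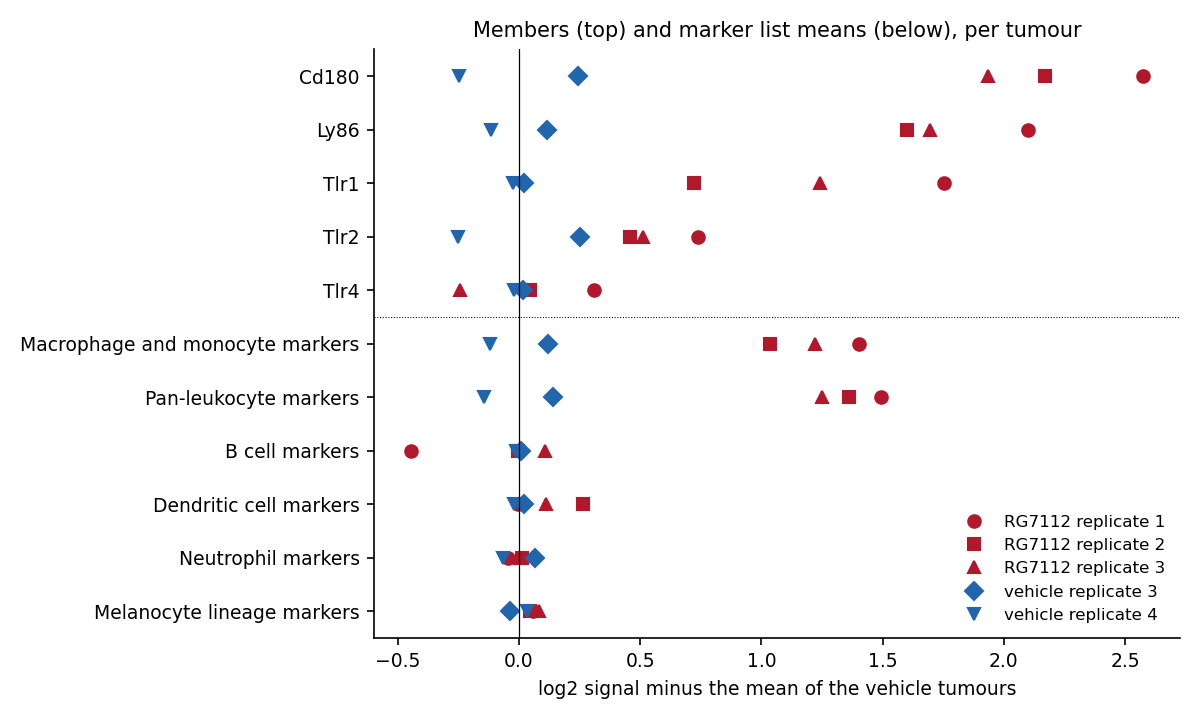
Log2 signal of each tumour minus the mean of the vehicle tumours, for 5 receptor genes (above the dotted line) and for the means of 6 marker lists (below it); RG7112 tumours are red and vehicle tumours blue. Cd180 and Ly86 shift further than the mean of the macrophage and monocyte list, whose single genes differed by -0.56 to 2.57. Tlr4 scatters around 0. B cell, neutrophil and melanocyte lists stay near 0 apart from a low B cell value in RG7112 replicate 1. The T cell, endothelial and fibroblast lists, which differed by 0.63, 0.55 and 0.15, are not drawn.

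The genes whose pattern over the 5 tumours was most like that of Cd180, by the smallest root mean square difference of centred log2 signals among 18456 named genes, were Klra2 (0.141), Slamf9 (0.141), Cybb (0.148), Slamf7 (0.150) and Fcgr4 (0.174). Slamf7 and Slamf9 belong to the SLAM family of leukocyte receptors, Cybb is the catalytic subunit of the phagocyte NADPH oxidase, Fcgr4 is an activating receptor for IgG and Klra2 a lectin-like receptor. For Ly86 the nearest gene was Sp100 (0.0499), for Tlr1 it was Ccr2 (0.0650), the receptor that brings monocytes into tissue, and for Tlr2 it was Fes (0.0425), a kinase of myeloid cells. For the other members it was Lpgat1 for Tlr4 (0.0124), Heyl for Tlr5 (0.0175), Hpcal1 for Tlr6 (0.0460), Retnla for Ly96 (0.137) and Gzmk for Cd14 (0.0669). With 5 tumours, 2 of them with vehicle, many genes can come close to a given pattern.

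The wider pathway was listed by role, from ligands, co-receptors, chaperones and endosomal receptors to adaptors, kinases and response genes. Of 102 listed pathway genes, 91 were measured in 11 lists, some of them in more than 1 list. Of these, 14 were called higher and 0 lower in limma, against 1.42% and 0.0315% of all probe sets, and 33 were higher and 2 lower at an unadjusted p under 0.05, against 4.83% and 4.06%. Their median log2 difference was 0.20. The 14 calls fell to 7 without vehicle replicate 3 and to 1 without vehicle replicate 4.

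Among 6 adaptors, 2 were called higher and 0 lower. Pik3ap1, which links the receptors to PI3 kinase, had signals of 7.85, 7.92 and 7.99 with RG7112, against 6.41 and 5.86 with vehicle. It rose by 1.79 ± 0.19 (limma adjusted p = 0.000703) and was called without any 1 tumour. Myd88, the adaptor of all the surface receptors studied here that carry a TIR domain, had signals of 6.69, 6.82 and 6.86 with RG7112, against 5.60 and 5.97 with vehicle. It rose by 1.01 ± 0.17 (limma adjusted p = 0.0119), a call lost on removal of a vehicle tumour (adjusted p = 0.246 without replicate 3 and 0.0730 without replicate 4) and without RG7112 replicate 3 (adjusted p = 0.0529). The adaptors of the branch towards type I interferon, Ticam1 and Ticam2, differed by -0.10 ± 0.18 and 0.29 ± 0.19 and were not called.

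Of 10 measured kinases and ubiquitin ligases that act after Myd88, 0 were called. Among them 1, Map3k8 (0.46 ± 0.18), was higher at an unadjusted p under 0.05. Irak1 and Irak4, listed kinases of the Myd88 complex, have no named probe set here and were not analysed. The ligase Traf6 differed by -0.24 ± 0.16, its helper Tab1 by -0.36 ± 0.19 and the kinase Irak2 by 0.34 ± 0.22. Of 9 measured genes of the NF-kB core 0 were called, with a median difference of -0.09, and the inhibitor Nfkbia, itself an NF-kB target, differed by 0.41 ± 0.19 (limma adjusted p = 0.561). The inhibitor Nfkbie, the NF-kB subunit Rela and the kinase subunit Ikbkg differed by -0.28 ± 0.16, -0.25 ± 0.19 and 0.21 ± 0.18. Nfkb1 and Chuk of this list have no named probe set here and were not analysed. Of 7 chaperones and trafficking genes 0 were called. Among these, Rab7b, a GTPase that sends Tlr4 to lysosomes, differed by 0.80 ± 0.18 (adjusted p = 0.0584). Rab7b was called with array weights, with quantile or cyclic loess normalization, at adjusted p under 0.10 and without RG7112 replicate 1 (adjusted p-values from 0.0323 to 0.0584). Unc93b1, the chaperone of endosomal receptors and of Tlr5, differed by 0.58 ± 0.16 (adjusted p = 0.176) and Cnpy3, a folding factor for Toll-like receptors, by -0.43 ± 0.17 (adjusted p = 0.471). Of 4 measured genes of the branch towards type I interferon 0 were called, and Irf7, a transcription factor for interferon genes, differed by 1.15 ± 0.26 (adjusted p = 0.0638). Irf7 was called with an intensity trend (adjusted p = 0.0330), at adjusted p under 0.10 and without RG7112 replicate 2 (adjusted p = 0.00668). The kinase Tbk1 differed by 0.44 ± 0.15. Traf3 and Ripk1, listed for this branch, have no named probe set here. Of 11 measured negative regulators 0 were called, and Irak3, a kinase-like brake of the Myd88 complex, differed by 1.00 ± 0.25 (adjusted p = 0.117). Tnfaip3, an enzyme that edits ubiquitin chains, and Socs1 differed by 0.45 ± 0.23 and 0.39 ± 0.24.

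Of 7 measured co-receptors and ligand carriers 2 were called higher and 0 lower. Itgam and Itgb2, the chains of a complement receptor on myeloid cells that also tunes responses to lipopolysaccharide, rose by 1.57 ± 0.25 (limma adjusted p = 0.00861) and 1.10 ± 0.15 (adjusted p = 0.00352). Both calls were lost without vehicle replicate 4, and that of Itgb2 also without vehicle replicate 3. Cd36, a scavenger receptor that assists Tlr2 with Tlr6, differed by 1.42 ± 0.37 and was not called (adjusted p = 0.138), and it was called without vehicle replicate 3 (2.14, adjusted p = 0.0304). Of 10 endogenous ligands 0 were called. Saa3, an acute phase protein reported to act on Tlr4 in mice, was at 8.42, 7.73 and 8.02 with RG7112, against 9.22 and 8.40 with vehicle, a difference of -0.75 ± 0.26 (adjusted p = 0.332). S100a8 and S100a9, proteins of neutrophils and monocytes that can activate Tlr4, differed by -0.13 ± 0.16 and -0.05 ± 0.17. Bgn and Vcan differed the other way, by 0.42 ± 0.19 and 0.17 ± 0.16. Of the 10 ligands 6 had a positive difference, against 9941 of all 22203 probe sets, and the median of the list was 0.01.

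Among 15 measured early response genes, which Toll-like receptors and other stimuli induce through NF-kB and interferons, 5 were called higher and 0 lower. Acod1, the enzyme that makes itaconate in activated macrophages, had signals of 6.15, 6.24 and 6.26 with RG7112, against 4.96 and 4.60 with vehicle. It rose by 1.44 ± 0.17 (limma adjusted p = 0.00122). The cytokine Tnf rose by 1.43 ± 0.17, the chemokine Cxcl10 by 1.65 ± 0.21 and the chemokine Ccl3 by 1.78 ± 0.25. These 4 genes lost their call without vehicle replicate 4, with adjusted p-values from 0.0570 to 0.0907. Nos2, the inducible nitric oxide synthase, is named after its value was seen and rose by 0.80 ± 0.16 (adjusted p = 0.0315). Its call was lost in each of the 5 fits without a tumour (adjusted p-values from 0.0689 to 0.441) and with an intensity trend (0.0690). Il6 and Il1b, named in the same way, did not pass, with differences of 0.08 ± 0.18 and 0.46 ± 0.19, and both were dim.

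**Figure D5:**
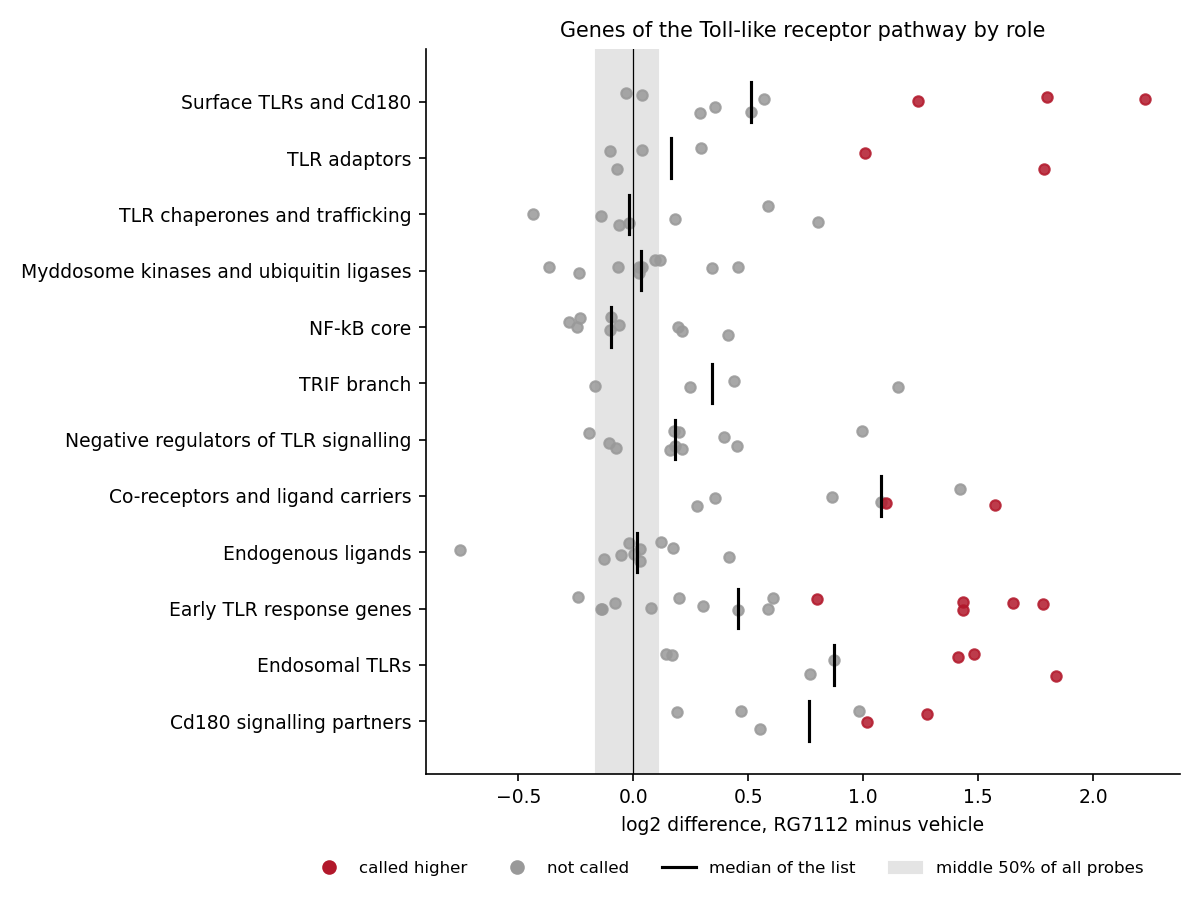
Log2 difference, RG7112 minus vehicle, of every measured gene of the receptor family and of the 11 pathway lists; each point is 1 gene, red when called higher, the black bar is the list's median, and the band holds the middle 50% of all probe sets. The points called lie in the receptor family, the adaptors, the co-receptors, the early response genes, the endosomal receptors and the Cd180 partners. None lies in the chaperones, the kinases, the NF-kB core, the branch towards type I interferon, the negative regulators or the ligands.

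Cd180 signals in B cells through Lyn, Btk and Vav proteins. Of 6 measured genes of this list 2 were called higher and 0 lower. Vav1, an exchange factor of blood cells, rose by 1.28 ± 0.22 (limma adjusted p = 0.0119) and Prkcb, a protein kinase C, by 1.01 ± 0.19 (adjusted p = 0.0248). Neither was called once vehicle replicate 3, vehicle replicate 4 or RG7112 replicate 3 was removed, and Prkcb also lost its call without RG7112 replicate 2. Btk differed by 0.98 ± 0.24 (adjusted p = 0.106) and Syk by 0.55 ± 0.17 (adjusted p = 0.240). Lyn has no named probe set here and was not analysed here.

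The endosomal Toll-like receptors are the other branch of the family. Tlr3, Tlr7, Tlr8, Tlr9 and Tlr13 belong to the sensors of nucleic acids, and Tlr11 and Tlr12 sense the parasite protein profilin in mice. Of 7 measured, 3 were called higher and 0 lower: Tlr7 (1.84 ± 0.33), Tlr8 (1.48 ± 0.31) and Tlr13 (1.41 ± 0.28). None of these 3 calls held without vehicle replicate 3 or 4 (adjusted p-values from 0.0980 to 0.466) or without RG7112 replicate 2 (from 0.0706 to 0.112). Tlr3, the receptor for double-stranded RNA, differed by 0.77 ± 0.21 (adjusted p = 0.145), and was called without RG7112 replicate 3 (adjusted p = 0.0335). Whether surface and endosomal receptors differ in their response was not tested.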

How the data were processed

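RNA of 5 tumours, 3 with RG7112 and 2 with vehicle, was measured on 1 Affymetrix Clariom S array each. The deposited values are log2 signals, and oligo and RMA are named in the submitters' processing notes; their versions and options are not stated there. The values ran from 2.53 to 13.3, and the number of arrays limits the precision. Replicates are separate mice, as the series design gives 5 mice for 5 samples.

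Of 22203 probe sets, 19572 had 1 gene symbol in the platform annotation, 0 had several and 2631 had none. For the 55 genes with several, the one with the highest mean was used. The log2 difference of RG7112 minus vehicle came from limma 3.58.1 under R 4.3.3 (functions lmFit and eBayes at their defaults, two-sided, Benjamini-Hochberg over all 22203 probe sets), with 3 residual and 7.92 prior degrees of freedom. The fit was tested on 10 simulated sets of 3 against 2 arrays, with 200 probe sets raised in each. Rises of 1 on the log2 scale were called in 69.5% of cases and rises of 2 in 99.8%. Of the calls, 5.29% were false. The simulated probe sets varied independently of each other and equally in both groups, so these rates describe that setting. Whether they hold for these tumours was not tested. Gaps between partner genes were tested with exact permutation.

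The members and the gene lists were chosen with earlier results of these data known. The rule for named genes took the up to 4 genes per list of smallest unadjusted p. It also took all calls of a list with 4 or fewer, and the genes of nearest pattern. Not every gene that the rule picked is named in the text. Nos2, Il6, Il1b, S100a9, Cd163, Ms4a1 and Cd79a were named after their values were seen. Alternatives were an intensity trend, a robust prior, array weights, quantile and cyclic loess normalization, leaving out probe sets below percentile 40 of mean signal, 1 probe set per named gene, the mean of all probe sets of a gene, adjusted p under 0.10, and leaving out each tumour. No scanner files or scan dates were used here, so array batches were not examined.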

Additional observations from a re-analysis of the deposited data

How the results depend on the processing

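The difference of Cd180 ran from 1.98 to 2.47 over the 14 alternatives. Ly86 was called under each of the 14 and Tlr1 under 11 of 14, its call being lost without RG7112 replicate 3 and without vehicle replicate 3 or 4. The number of receptor genes called higher was 2 to 4 when a tumour was left out and 3 under the other settings, and 0 were called lower under any. Over all probe sets, leaving out a tumour gave 65 to 268 called higher and 0 to 5 called lower, against 315 and 7; the lone vehicle tumour in 2 of these fits is assumed to vary like the RG7112 tumours. Called lower were 16 with array weights, 4 with cyclic loess normalization, 2 without dim probe sets and 29 at adjusted p under 0.10. The 14 pathway genes called higher became 1 to 13, fewest without vehicle replicate 4. The cause of these shifts was not tested.

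Small differences changed sign. Tlr4 was at -0.00776 with quantile normalization and -0.10 to 0.18 with a tumour left out, and Tlr5 was at 0.0288 with quantile normalization, 0.0317 with cyclic loess normalization and -0.25 to 0.18 with a tumour left out. With a tumour left out, Ticam1 ran from -0.19 to 0.0326, Irak2 from -0.0494 to 0.74, Ikbkg from -0.0373 to 0.47 and Socs1 from -0.0137 to 0.80. The signs of all 6 partner gaps held under both normalizations and without any 1 tumour. No paired analysis was made, because the tumours come from separate mice and the labels name no pairs.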
